A study of Danio rerio with 9 samples.

Results

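Schwann cells, the glia of peripheral nerves, were compared with neurons in zebrafish larvae at 72 hours post fertilization. The comparison used 6 of the 9 RNA sequencing libraries of the study, 3 of Schwann cells and 3 of neurons, and covered every transcript identifier listed for them. Of 52216 listed identifiers, 23408 passed a filter on low counts and were tested, and 28808 were not. The remaining 3 libraries, of the oligodendrocyte lineage, entered the statistical model to help estimate the spread between replicates, and their levels are given where they help place a transcript.

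The Schwann cell group held cells positive for both reporters from the wild-type AB* background carrying the gene trap Gt(foxd3:mCherry) and the transgene Tg(sox10:mEGFP). The neuron group held red fluorescent cells from AB* fish carrying Tg(nbt:dsred). The oligodendrocyte lineage group held double-positive cells from AB* fish carrying Tg(olig2:dsred) and Tg(sox10:megfp). Cells were sorted from trunks after the anterior parts of the embryos had been removed, at 1750 ± 750 cells per sample, and their RNA was amplified with a full-length cDNA kit for very low input. Each population came from its own transgenic fish and its own sort, so the cell type cannot be told apart from the fish or the sort. Reporter expression alone defined each group: foxd3 and sox10 also mark neural crest cells and some of their other derivatives, and nbt drives expression in neurons broadly, central and peripheral.

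Schwann cells arise from the neural crest, migrate along growing axons, ensheathe them and later myelinate some of them. They depend on signals from the axon surface for survival and division, and they supply the axon with metabolic support. Neurons carry excitability, axonal transport and synaptic release, and their long processes need large amounts of cytoskeletal and vesicle proteins. Larval trunk nerves at this stage hold Schwann cells before and at the start of myelination.

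Transcripts are given by identifier, rank, length and level, because the files do not pair identifiers with gene names, and 0 of 52216 identifiers matched the gene tables at hand. The markers of Schwann cells, neurons and other cell types were therefore not analysed here, and the labelled cell types were not checked against them. Summed estimated counts per library were 8502028, 7123251 and 11191844 in Schwann cells and 17126213, 11439759 and 13646847 in neurons. Schwann cell libraries held 17110, 16110 and 22635 transcripts with at least 1 count, against 28593, 23447 and 24737 in neurons. Levels are given in CPM, the count of a transcript scaled to a common library total with TMM factors between libraries, as mean ± SD over 3 libraries per group. The labels do not tie replicates to different clutches or sorting days. The p-values below therefore reflect how far these particular libraries varied, and that variation may be technical.

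More transcripts were lower in Schwann cells than higher. With edgeR's quasi-likelihood test and a Benjamini-Hochberg adjusted p under 0.05, 13 transcripts were higher in Schwann cells, 0.0555% of those tested, and 70 were lower, 0.299%. The 3 Schwann cell libraries all lay above the 3 neuron libraries for 1492 transcripts (6.37% of those tested) and all below them for 4471 (19.1%). The smallest two-sided permutation p that 3 against 3 allows is 0.1. Exchangeable libraries would thus separate by chance at a share of 0.1 over both directions together. The 1492 can therefore hold many transcripts separated by chance, and these shares were not tested. All 83 called transcripts were among those without overlap. Before adjustment, p was under 0.05 for 632 transcripts higher in Schwann cells and 3115 lower. The total of 83 moved with the library left out, when the filter was applied anew. It was 14, 25 or 118 with Schwann cells replicate 1, 2 or 3 left out, 14, 4 or 38 with oligodendrocyte lineage replicate 1, 2 or 3 left out and 2, 1 or 1 with neurons replicate 1, 2 or 3 left out. On the same 23408 transcripts it was 61 in place of 25 and 278 in place of 118 for Schwann cells replicates 2 and 3, and the other totals differed by at most 1. The cause was not tested.

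The balance of both directions also moved with the scaling of the libraries. The median log2 fold change of all transcripts tested, Schwann cells over neurons, was -0.31 with TMM, -0.11 with DESeq2 size factors and 0.13 with upper-quartile factors. Under those other scalings the transcripts without overlap were 7.28% and 8.48% in the higher direction and 18% and 16.5% in the lower one. In edgeR, higher and lower calls were 13 and 70 with TMM, 13 and 55 with DESeq2 size factors and 14 and 34 with upper-quartile factors. Higher calls thus made up 15.7%, 19.1% and 29.2%, and it was the lower calls that became fewer. DESeq2 itself gave an adjusted p to 21545 transcripts and called 624 higher (2.9%) and 2537 lower (11.8%), including all 13 of the higher calls and 68 of the 70 lower calls of edgeR.

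The transcripts called higher were abundant in the Schwann cell libraries and mostly detected in the neuron libraries too. Their mean levels in Schwann cells ran from 321 to 5363 CPM with a median of 1081 CPM, and 7 of the 13 exceeded 1000 CPM. In 12 of the 13 every neuron library held at least 10 CPM, so these transcripts differed in level and were detected in the libraries of both groups. The share of all tested transcripts for which this held was not counted. Ratios of mean CPM ran from 2.87-fold to 3589-fold with a median of 10.2-fold. In bulk samples such as these, fewer cells of a type and less RNA per cell cannot be told apart.

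The most abundant of them, ENSDART00000043298.7, is 1699 bases long. It was at 5317, 4307 and 6464 CPM in Schwann cells, against 1845, 1666 and 2092 CPM in neurons. It had the highest mean of all transcripts in Schwann cells, and every Schwann cell library lay above every neuron library by more than the spread of either group. Its mean was 5363 ± 1079 CPM in Schwann cells, against 1868 ± 214 CPM in neurons, 2.87-fold higher (SD, n = 3 each). In edgeR's quasi-likelihood test its log2 fold change was 1.52 (SE 0.208, adjusted p = 0.0311), or 1.84 above the median of all transcripts. Tested transcripts whose higher group averaged over 1000 CPM, as here, had a higher median log2 fold change, 0.505. Against that median the gap was smaller. The oligodendrocyte lineage libraries, at 2438, 2272 and 2367 CPM, lay between both groups.

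ENSDART00000010477.7, of 2358 bases, was at 3509, 7155 and 4779 CPM in Schwann cells, against 1261, 1141 and 1546 CPM in neurons. Its lowest Schwann cell library was more than the highest neuron library, and the spread within Schwann cells was 2.04-fold. The mean was 5148 ± 1851 CPM in Schwann cells, against 1316 ± 208 CPM in neurons, 3.91-fold higher (SD, n = 3 each). Its log2 fold change was 1.97 (SE 0.268, edgeR adjusted p = 0.0311), or 2.28 above the median of all transcripts. The gap was smaller against the median of 0.505 for tested transcripts whose higher group averaged over 1000 CPM. The oligodendrocyte lineage held as much as Schwann cells or more, at 7037, 5961 and 7366 CPM.

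Both calls depend on the libraries in the model. The adjusted p of ENSDART00000043298.7 was 0.0638 without Schwann cells replicate 1, 0.0533 without replicate 3, 0.0610 and 0.0727 without oligodendrocyte lineage replicate 1 and 2, and 0.148 to 0.167 without any one neuron library. It was 0.0712 without a filter and 0.0518 in a fit of Schwann cells and neurons alone. The adjusted p of ENSDART00000010477.7 was 0.0610 and 0.0655 without oligodendrocyte lineage replicate 1 and 2, 0.141 to 0.160 without any one neuron library and 0.0651 in a fit of both groups alone. With a replicate block in edgeR neither transcript passed (adjusted p = 0.147 for ENSDART00000043298.7 and 0.162 for ENSDART00000010477.7).

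Among the other 11 transcripts called higher, several had wide gaps between the groups, which selection by the test favours. These 11 were each called in 7 to 17 of 29 alternative settings. The third by level in Schwann cells, of 1950 bases, was at 3926, 4139 and 3452 CPM in Schwann cells, against 914, 780 and 1121 CPM in neurons. The seventh, of 1279 bases, was the steadiest, at 1054, 1118 and 1070 CPM in Schwann cells, against 156, 180 and 165 CPM in neurons. Both groups of that transcript were tight and the gap between them was 6.48-fold. The tenth, of 5520 bases, was at 610, 459 and 438 CPM in Schwann cells, against 29.9, 26.4 and 45.5 CPM in neurons. The eleventh, of 8392 bases, was at 435, 354 and 543 CPM in Schwann cells, against 21.3, 10.4 and 10.6 CPM in neurons, 31.5-fold higher.

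A single transcript called higher was close to absent from neurons. It is 8469 bases long and was at 674, 370 and 175 CPM in Schwann cells, against 0.0642, 0.275 and 0 CPM in neurons. The ratio of the means, 3589-fold, rests on 4 counts over the neuron libraries. Its log2 fold change was 11.72 (edgeR adjusted p = 0.0259), and the oligodendrocyte lineage was in between at 74.4, 89.6 and 57.2 CPM.

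Most of the 13 transcripts were also abundant in the oligodendrocyte lineage. In 12 of the 13, every oligodendrocyte lineage library lay above every neuron library, which held for 9.43% of all tested transcripts. In 4 of the 13 every oligodendrocyte lineage library lay above every Schwann cell library as well (11.2% of all tested), in 5 it lay below (5.69% of all tested), and in 4 the glial groups overlapped. The fifth by level, of 3205 bases, was at 2323, 1005 and 1174 CPM in Schwann cells, against 55.4, 101 and 189 CPM in neurons, with 4217, 3660 and 5166 CPM in the oligodendrocyte lineage. Both glial populations were set against the same neuron libraries, and the oligodendrocyte lineage libraries took part in the fit that made the calls. The 13 were abundant, while the shares of all tested transcripts cover every level and give no reference at matched level. The counts among the 13 were not tested.

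**Figure D1:**
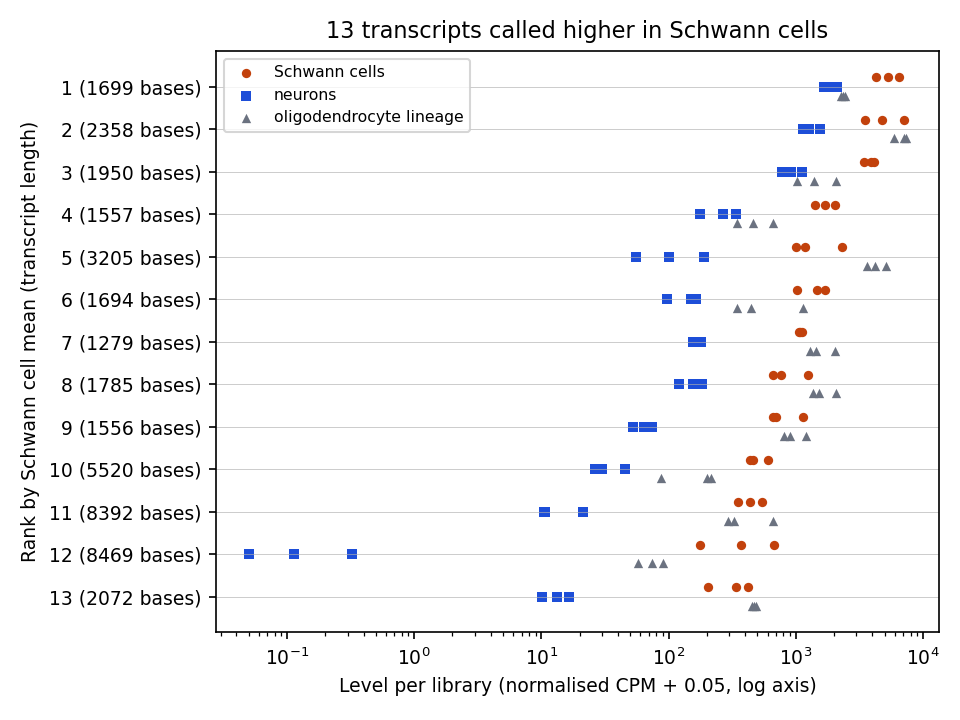
CPM (log axis) of the 13 transcripts called higher in Schwann cells, ordered by their mean level in Schwann cells, with a point for each library of Schwann cells, neurons and the oligodendrocyte lineage. The 3 Schwann cell points lie above the 3 neuron points in every row, and only the transcript of 8469 bases has neuron libraries under 1 CPM.

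Most of the 70 transcripts called lower had a moderate level in neurons and next to none in Schwann cells. Mean levels in neurons ran from 16.1 to 30798 CPM with a median of 147 CPM, and the median of the Schwann cell means was 0.112 CPM. In 59 of the 70 all Schwann cell libraries were under 1 CPM, and 16 of those had no counts in any. This was not particular to the calls. With 10 CPM or more in every neuron library, 854 transcripts were under 1 CPM in every Schwann cell library. The reverse held for 26. Of the 54 with counts in both groups, neuron means were 7.18-fold to 7751-fold higher, with a median of 985-fold. For the 16 without counts, neurons were at least 151-fold to 1954-fold higher, taken against 3 counts summed over the Schwann cell group. These floors cover counting error only, since the amplified reads carry no molecular identifiers.

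ENSDART00000168815.1, of 2084 bases, was at 11.4, 15.6 and 40.3 CPM in Schwann cells, against 33786, 29988 and 28619 CPM in neurons. It was the second most abundant transcript of neurons. The mean was 22.5 ± 15.6 CPM in Schwann cells, against 30798 ± 2677 CPM in neurons, 1371-fold lower (SD, n = 3 each). Its log2 fold change was -10.42 (SE 1.097, edgeR adjusted p = 0.0182), or -10.11 from the median of all transcripts. The oligodendrocyte lineage held 79.3, 614.7 and 97.7 CPM, above every Schwann cell library and far below neurons.

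ENSDART00000128618.2, of 2381 bases, was at 97.4, 5.60 and 50.5 CPM in Schwann cells, against 13332, 12021 and 11852 CPM in neurons. The neuron replicates agreed within 1.12-fold, while the Schwann cell replicates did not. The mean was 51.2 ± 45.9 CPM in Schwann cells, against 12402 ± 810 CPM in neurons, 242-fold lower (SD, n = 3 each). Its log2 fold change was -7.92 (SE 1.01, edgeR adjusted p = 0.0259), or -7.61 from the median of all transcripts.

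Whether these calls passed depended on which library was left out. The edgeR adjusted p of ENSDART00000168815.1 was 0.0518 without Schwann cells replicate 1, 0.0501 without replicate 2 and 0.0671 to 0.0797 without any one neuron library, and it passed without any other library. That of ENSDART00000128618.2 was 0.0518 without Schwann cells replicate 1, 0.0584 without oligodendrocyte lineage replicate 2 and 0.111 to 0.115 without any one neuron library. In a fit of both groups alone, ENSDART00000168815.1 passed (0.0129) and ENSDART00000128618.2 did not (0.0644). With a replicate block in edgeR neither passed (adjusted p = 0.0714 and 0.147). DESeq2 gave no adjusted p to ENSDART00000168815.1 and called ENSDART00000128618.2.

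Of the 70, 5 had a mean above 1000 CPM in neurons, 41 were between 100 and 1000 CPM and 24 between 10 and 100 CPM. The third by level in neurons, of 1452 bases, had the smallest gap of the 70, with 150, 284 and 367 CPM in Schwann cells against 1938, 1659 and 2153 CPM in neurons. The next, of 5586 bases, was at 0.943, 1.56 and 0.577 CPM in Schwann cells, against 1552, 1035 and 1247 CPM in neurons. The oligodendrocyte lineage carried that transcript at 814, 876 and 113 CPM, so among the 3 populations Schwann cells alone nearly lacked it.

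Levels of the 70 in the oligodendrocyte lineage ran from near 0 to above those in neurons. The oligodendrocyte lineage mean was at least 100 CPM in 38 of them, 10 to 100 CPM in 21, 1 to 10 CPM in 1 and under 1 CPM in 10. Every oligodendrocyte lineage library lay above every Schwann cell library in 58 of the 70, against 11.2% of all tested transcripts. It lay above every neuron library in 14, below in 28 and overlapped with neurons in 28, where 9.43% and 15.7% of all tested transcripts lay above and below. Since the oligodendrocyte lineage took part in the fit that made the calls, nothing is read from these shares. The transcript with the lowest neuron mean, of 1730 bases, had no counts in Schwann cells and 11.8, 17.1 and 19.3 CPM in neurons, with 362, 376 and 336 CPM in the oligodendrocyte lineage. Another, of 1831 bases, had no counts in Schwann cells and 203, 153 and 159 CPM in neurons, with a mean of 0.0205 CPM in the oligodendrocyte lineage, and was at least 1617-fold lower in Schwann cells than in neurons.

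**Figure D2:**
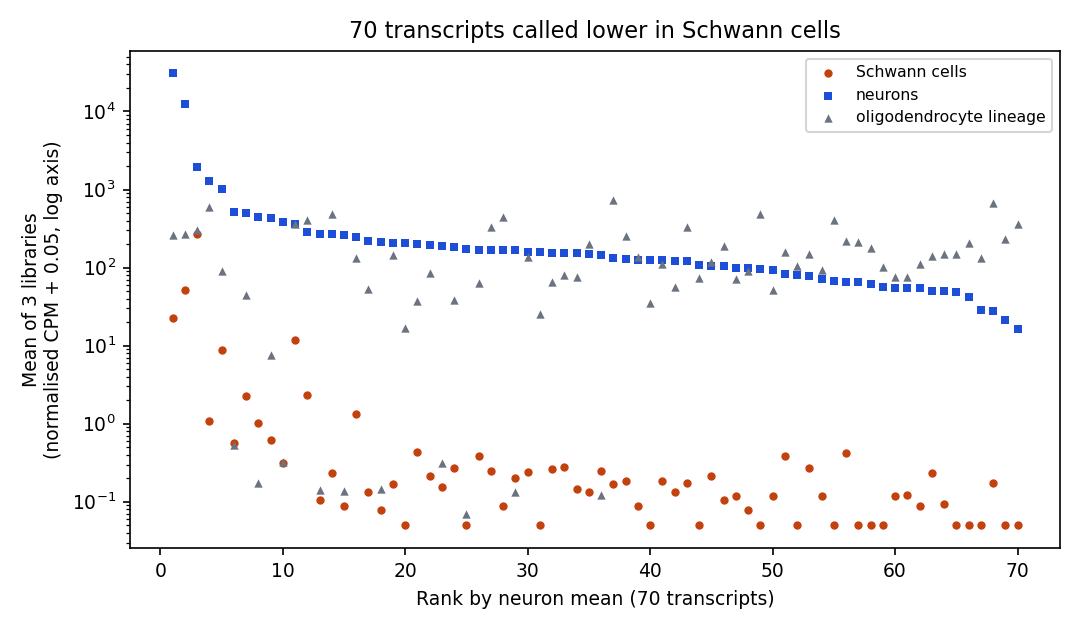
Mean CPM (log axis) of the 70 transcripts called lower in Schwann cells, ordered by their mean level in neurons. Each point is the mean of 3 libraries of Schwann cells, neurons or the oligodendrocyte lineage, so the spread between replicates is not shown. The Schwann cell mean is 1 CPM or more in 9 of the 70, while the oligodendrocyte lineage points range from the floor to above the neuron points.

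Several large differences among the most abundant transcripts were not called. Among transcripts with a mean of at least 1000 CPM in a group and a ratio of at least 10-fold, 13 were not called. Schwann cells were higher in 7 and lower in 6. In all of them the groups did not overlap, which a ratio of at least 10-fold favours. Over all tested transcripts above 1000 CPM, Schwann cells were above all neuron libraries in 46.4% and below all in 29.9%. The limits on level and ratio were chosen after the values were seen. The 7 higher ones had edgeR adjusted p-values of 0.0726 to 0.268, and DESeq2 and voom with quality weights called all 7. The 6 lower ones had edgeR adjusted p-values of 0.0548 to 0.516. DESeq2 called 2 of the 6 and gave no adjusted p to 3, and voom called 4. In all 7 higher ones every oligodendrocyte lineage library lay below every Schwann cell library, against 5.69% of all tested transcripts. The high Schwann cell level asked of the 7 favours this. In 6 of them the oligodendrocyte lineage libraries differed from each other by over 10-fold. The lowest of these libraries was at 3.55 CPM or less in each of the 7, where such ratios rest on few counts. Why the 13 were not called was not tested. A fit without the oligodendrocyte lineage on the same transcripts called 2 of the 7 and 0 of the 6. Over all 23408 transcripts that fit called 4 higher and 9 lower.

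The largest gap of the 7 was in a transcript of 2541 bases. It was at 2376, 2484 and 1802 CPM in Schwann cells, against 9.32, 0.0918 and 0.166 CPM in neurons, with at most 1.48 CPM in the oligodendrocyte lineage. The Schwann cell libraries were close together and the neuron libraries were not. Its ratio was 696-fold and its log2 fold change 9.43 (SE 1.91, edgeR adjusted p = 0.0726). Of the 7, the most abundant in Schwann cells, of 6221 bases, was at 4102, 3636 and 2889 CPM in Schwann cells, against 256, 195 and 421 CPM in neurons, 12.2-fold higher. A transcript of 2171 bases was at 1529, 875 and 1396 CPM in Schwann cells, against 27.9, 33.6 and 24.9 CPM in neurons, 43.9-fold higher.

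The most abundant transcript of neurons was among the 6 lower ones that were not called. It is 5797 bases long and was at 2270, 107 and 1019 CPM in Schwann cells, against 92284, 86907 and 79818 CPM in neurons. It took 0.226%, 0.0115% and 0.110% of all counts in the Schwann cell libraries, against 8.39%, 8.27% and 7.06% in the neuron libraries. The ratio was 76.3-fold and the log2 fold change -6.25 (SE 1.11, edgeR adjusted p = 0.0548), with a Schwann cell spread of more than 10-fold. The next of the 6, of 2009 bases, was at 144, 5.08 and 1.65 CPM in Schwann cells, against 11456, 10766 and 11484 CPM in neurons (edgeR adjusted p = 0.0755). Schwann cells replicate 1 held the most of both. The others of the 6 were also uneven within Schwann cells, and the third, of 4861 bases, was uneven in both groups, at 424, 0 and 3.30 CPM in Schwann cells, against 7070, 495 and 746 CPM in neurons (edgeR adjusted p = 0.516).

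The 15 most abundant transcripts of each group overlapped in 4. Schwann cells lay above every neuron library for 11 of their own 15, of which 3 were called. They lay below every neuron library for 7 of the neuron 15, of which 2 were called. In 8 of the neuron 15 the neuron replicates lay more than 3-fold apart. The Schwann cell replicates did so in 3 of the Schwann cell 15. Each list was picked for a high level in its group, which favours that direction, and over all tested transcripts above 1000 CPM the shares were 46.4% above and 29.9% below. A shared member of 1789 bases was level across both groups, at 2693, 3527 and 3427 CPM in Schwann cells, against 3214, 3066 and 3381 CPM in neurons.

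How often the groups separated depended on the level. Among 97 tested transcripts whose higher group averaged over 1000 CPM, Schwann cells were above all neuron libraries in 46.4% and below all in 29.9%. Among 2980 transcripts at 100 to 1000 CPM the shares were 20.2% above and 22.9% below, and at 10 to 100 CPM they were 5.57% and 21.4%. The median log2 fold change, Schwann cells over neurons, was -0.50 under 1 CPM, -0.61 at 1 to 10 CPM and -0.27 at 10 to 100 CPM. It was 0.25 at 100 to 1000 CPM and 0.505 above 1000 CPM. All 13 higher calls came from above 100 CPM, 7 of them from above 1000 CPM. Lower calls reached down to the band of 10 to 100 CPM, which held 24 of the 70.

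Replicates varied more among Schwann cells than among neurons, except among the 15 most abundant transcripts of each group. There, replicates lay more than 3-fold apart for 3 transcripts in Schwann cells and 8 in neurons. Among transcripts averaging at least 100 CPM in a group, the highest library exceeded the lowest by a median of 3.34-fold over 2163 transcripts in Schwann cells and 1.70-fold over 2007 in neurons, with 0.1 CPM added to each. In Schwann cells 602 of them (27.8%) varied by over 10-fold, against 18 (0.897%) in neurons. Replicates within 2-fold of each other made up 26.7% in Schwann cells and 65.4% in neurons. The oligodendrocyte lineage was in between, with a median of 2.42-fold over 2130 transcripts, 14.1% over 10-fold and 38.3% within 2-fold. Schwann cells replicates 1 and 2 often lacked a transcript that the other libraries of the group held. Where both other libraries of a group held 50 CPM or more of a transcript, 14.7%, 22.9% and 2.99% of such transcripts were under 1 CPM in Schwann cells replicate 1, 2 and 3, against 0.0649%, 1.87% and 0.527% in neurons. In the oligodendrocyte lineage these shares were 1.65%, 2.40% and 12.4%. The 3 Schwann cell libraries also had lower summed counts than all neuron libraries, and the part of depth in this spread was not tested.

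**Figure D3:**
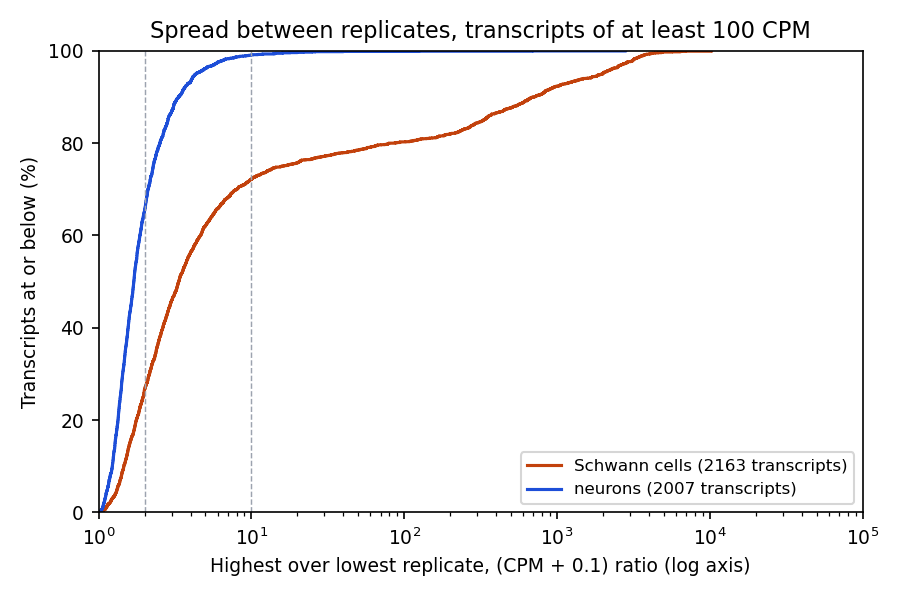
Cumulative distribution of the highest over the lowest replicate (log axis) for transcripts with a mean of at least 100 CPM, in Schwann cells and neurons. The Schwann cell distribution is the wider, with a median of 3.34-fold against 1.70-fold in neurons.

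Transcripts present in every library of a group and near absent from every library of the other were then counted, at limits chosen after the values were seen. At least 10 CPM in all 3 Schwann cell libraries with under 1 CPM in all 3 neuron libraries was found for 26 transcripts. The reverse was found for 854. Of the 26, 20 had no counts in neurons, and of the 854, 370 had no counts in Schwann cells. Of the 26, 1 was called by edgeR, and of the 854, 59 were. Over all tested transcripts edgeR called 0.0555% higher and 0.299% lower. Both lists ask for complete separation, which favours calls, so nothing is read from the numbers called. At 50 CPM the 26 and 854 became 6 and 184, and at 100 CPM they became 4 and 68.

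The need for all 3 libraries removed more on the Schwann cell side. A single Schwann cell library at 10 CPM or more, with all neuron libraries under 1 CPM, gave 156, 168 and 167 transcripts for replicates 1 to 3, or 340 in any, and the 26 found in all 3 were 7.65% of these. For neurons the counts were 1611, 1513 and 1640, or 2353 in any, and the 854 were 36.3% of these. Leaving out a library removes a condition, which by itself favours a rise in both counts. With a Schwann cell library left out, the 26 became 56, 72 or 49 for replicate 1, 2 or 3. With a neuron library left out they became 90, 37 or 51. The 854 became 2067 without Schwann cells replicate 3, the library with the most detected transcripts of its group, and 1008 to 1163 without any other.

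Among the 26, the second by level is 3114 bases long and was at 163, 204 and 325 CPM in Schwann cells with no counts in neurons, at least 2961-fold higher against 3 counts over the neuron group. The oligodendrocyte lineage held at most 0.177 CPM of it (edgeR adjusted p = 0.0548). The sixth, of 2141 bases, was at 137, 123 and 125 CPM in Schwann cells and had no counts in either neurons or the oligodendrocyte lineage, at least 1652-fold higher than in neurons (edgeR adjusted p = 0.0726). All oligodendrocyte lineage libraries were under 1 CPM for 7 of the 26 and at 10 CPM or more for 2. For the 854, all oligodendrocyte lineage libraries were under 1 CPM for 229 and at 10 CPM or more for 155.

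Schwann cell libraries also held counts of some transcripts that were far higher in neurons than in the oligodendrocyte lineage. A list of 116 transcripts was taken without the Schwann cell data, with a mean of at least 100 CPM in neurons and every neuron library more than 20 times the highest oligodendrocyte lineage library. The choice fixes a high level in neurons and a low level in the oligodendrocyte lineage, so only the Schwann cell level is free. Their summed level was 10975, 5031 and 8863 CPM in Schwann cells, against 182089, 162567 and 154854 CPM in neurons, with 973, 3745 and 1334 CPM in the oligodendrocyte lineage. Of the 116, 34, 29 and 56 were at 10 CPM or more in Schwann cells replicate 1, 2 and 3. Schwann cells lay below every neuron library for 87 of the 116 and above every neuron library for 3, against 19.1% and 6.37% of all tested transcripts. The high neuron level asked of the list favours the first. The Schwann cell mean was above the neuron mean for 12. Whether neuronal RNA reached the Schwann cell samples was not tested.

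The mirror list held 27 transcripts of the oligodendrocyte lineage, chosen the same way against neurons. Their summed level was 1381, 648 and 1312 CPM in Schwann cells, against 142, 71.9 and 86.1 CPM in neurons, with 12775, 16713 and 17679 CPM in the oligodendrocyte lineage. All 3 Schwann cell sums were above the neuron sums and far below those of the oligodendrocyte lineage. Schwann cells lay above every neuron library for 3 of the 27 and below for 0, against 6.37% and 19.1% of all tested transcripts, and their mean was above the neuron mean for 21. The low neuron level asked of the list favours Schwann cells lying above, so nothing is read from these counts.

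Lower calls were longer than higher calls at the median, and the difference was not tested. The median length was 1950 bases for the 13 higher calls and 3231.5 bases for the 70 lower calls, against 2264 bases for all tested transcripts. In the larger sets without overlap, which can include transcripts separated by chance, the medians were closer. They were 2019.5 bases for the 1492 higher and 2422 bases for the 4471 lower ones. Lengths over 3000 bases were found for 4 of the 13 and 38 of the 70, against 8134 of the 23408 tested. The median log2 fold change, Schwann cells over neurons, was -0.06 for tested transcripts of up to 1000 bases, -0.22 for those up to 2000, -0.40 for those up to 4000, -0.46 for those up to 8000 and -0.57 for longer ones. The length classes were not matched for level, and the median moved more, and changed sign, between classes of level. Schwann cells lay below every neuron library for 15.5% of the shortest class and 22.6% of the longest, and above every neuron library for 7.45% and 3.74%. In full-length libraries a long transcript collects more reads per molecule than a short one, so CPM are not compared between lengths here.

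On the TPM scale, which divides by transcript length before scaling to a common total, the mean length weighted by level was 2176, 2084 and 2186 bases in Schwann cells, against 2374, 2357 and 2279 bases in neurons. All Schwann cell libraries lay below all neuron libraries, with 2148 ± 56.3 bases in Schwann cells and 2337 ± 50.6 bases in neurons (SD, n = 3 each), a difference of -188 bases. An exact two-sided permutation test gave p = 0.1, the smallest that 3 against 3 allows, or 0.133 adjusted over the 4 measures tested. The oligodendrocyte lineage, which was not tested, was at 2148 ± 88.8 bases, close to Schwann cells. Without the 10 most abundant transcripts the difference between Schwann cells and neurons was -93.8 bases. The share of TPM in transcripts over 3000 bases was 21.1%, 18.4% and 20.6% in Schwann cells, against 23.6%, 23.5% and 21.8% in neurons (exact permutation p = 0.1, adjusted 0.133). Oligodendrocyte lineage libraries held 19.8%, 22.1% and 18.4%. Between Schwann cells and neurons the share turned the other way among transcripts whose estimated counts were whole numbers in every library. There it was 2.40 percentage points higher in Schwann cells.

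Fewer transcripts reached a moderate level in Schwann cells and more reached a high one. At least 10 TPM was found for 8259, 7450 and 12852 transcripts in Schwann cells, against 14081, 13118 and 13154 in neurons (exact permutation p = 0.1, adjusted 0.133). Schwann cells replicate 3 came close to the neuron libraries and the other 2 did not. The difference in means was -3931, and -3946 with all libraries thinned to the lowest library total. At 100 TPM the order was reversed, with 2415, 2625 and 2031 transcripts in Schwann cells and 1740, 1699 and 1677 in neurons. TPM share a common total, so the counts at 10 and 100 TPM are not independent of each other. The number of transcripts that together held 50% of the TPM overlapped, at 939, 792 and 1237 in Schwann cells and 1263, 988 and 931 in neurons (exact permutation p = 0.6, adjusted 0.6).

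**Figure D4:**
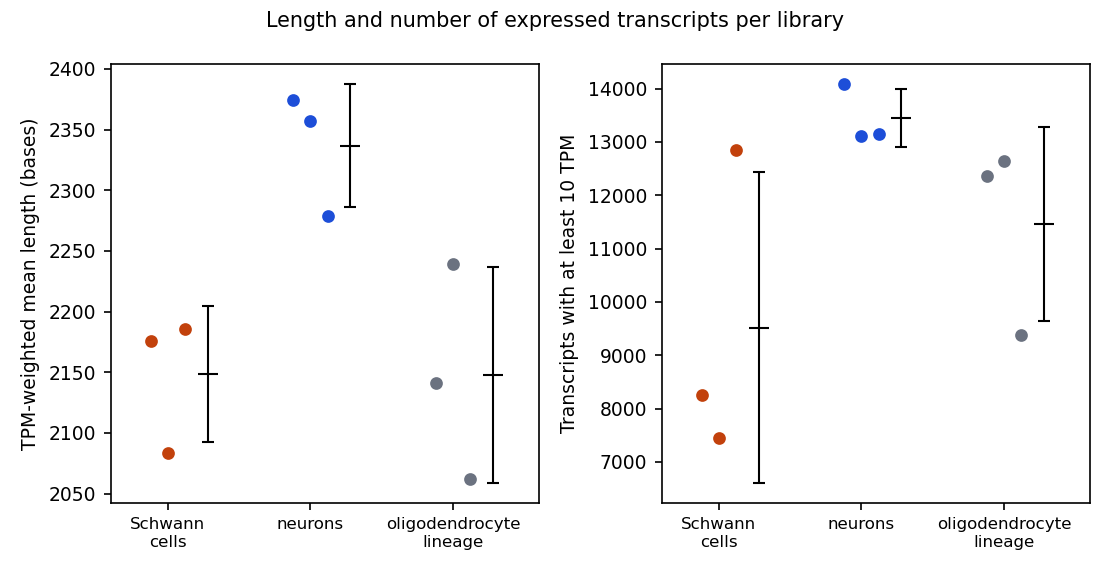
TPM-weighted mean transcript length (bases) and number of transcripts at 10 TPM or more per library, each on its own axis. The mean and SD of 3 libraries are shown for Schwann cells, neurons and the oligodendrocyte lineage. All Schwann cell libraries lie below all neuron libraries in both.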

How the data were processed

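Per the file headers, the deposited tables hold an estimated count for each transcript. They also hold other values, the deposited lengths and effective lengths in bases. The submitters' processing notes name the build danRer10 and the tools RSEM 1.2.15, Bowtie2 2.1.0, Trimmomatic and FastQC. For the estimated counts, neither the program nor the annotation release is given in those sources. Such counts share reads among isoforms and near-identical genes, so a level can carry reads of a related transcript. Of the tested transcripts 4571 held whole numbers in all libraries (tolerance 1e-06), 2 of the 13 higher and 24 of the 70 lower calls among them.

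Rounded counts were fitted with edgeR 4.0.16 in R 4.3.3 (filterByExpr by group, TMM, quasi-likelihood model on all 9 libraries, 6 residual degrees of freedom, common biological coefficient of variation 1.58). Standard errors were taken from each fold change divided by the root of its F value. The code was tested on simulated data with a narrower spread than these libraries have, which does not measure its power here. TPM were computed from counts and effective lengths. DESeq2 1.42.0, limma 3.58.1 voom, other scalings, filters and fits were alternatives. Named transcripts were the first 2 per direction by mean CPM in the higher group among calls whose log2 fold change was 1 or more in size and whose groups did not overlap. The comparison, the rule and the lists were chosen with earlier results of these data known. Gene lists and marker lists prepared by gene name were not analysed here, since 0 identifiers matched tables of 29201 and 49597 genes.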

Additional observations from a re-analysis of the deposited data

How the results depend on the processing

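The counts of calls moved with almost every choice. Higher and lower calls, 13 and 70 in edgeR with all libraries, were 42 and 302 with a filter of 10 CPM in 3 libraries, 624 and 2537 with DESeq2, 280 and 1397 with voom, 4 and 11 with only Schwann cells and neurons fitted (4 and 9 on the same transcripts, added after seeing the data), and 5 and 37 on the 4571 whole-number transcripts (also added). Of the calls with only Schwann cells and neurons fitted, 1 higher and 8 lower were among the 13 and 70. On the same transcripts these were 1 and 7. Lower calls were 34 with upper-quartile factors and 132 without a filter. The effective length offset gave 13 and 70. With a replicate block edgeR called 0 and 0, with 2846 transcripts at an unadjusted p under 0.05. Deviations of same-numbered Schwann cell and neuron libraries were close to uncorrelated (-0.01, 0.025 and 0.0031). That cannot show whether such libraries share a clutch or a sorting day, which the labels do not state. Without 1 library, higher calls ranged from 0 to 16 and lower calls from 1 to 109 with the filter applied anew and from 1 to 262 on the same transcripts. With replicate 1, 2 or 3 left out, the total of 83 was 14, 25 or 118 for Schwann cells, 14, 4 or 38 for the oligodendrocyte lineage and 2, 1 or 1 for neurons. The cause was not tested. Of 29 alternatives, or 28 where one gave no value, ENSDART00000043298.7 and ENSDART00000010477.7 were called in 12 and 15, ENSDART00000168815.1 and ENSDART00000128618.2 in 18 and 14. Their direction follows from the choice of transcripts without overlap.

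The counts of transcripts near absent from a group, 26 and 854, were 6 and 184 at 50 CPM, 4 and 68 at 100 CPM, and 37 to 90 and 1008 to 2067 without 1 library. The difference in the number of transcripts holding 50% of the TPM, -71.3, turned to 40 on the CPM scale and ranged from -195 to 29.8 without 1 library. The share of TPM over 3000 bases turned to 2.40 percentage points on whole-number transcripts, and the number at 10 TPM to 652 at 100 TPM. At 3 libraries against 3, the permutation tests could not pass 0.05. Schwann cell depth and dropout limit statements on absence.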
